A study of Mus musculus with 15 samples.

Results

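The contacts of mouse hippocampal gene promoters in the Early libraries were compared with those in the Basal libraries across every promoter of a promoter-capture Hi-C table. The table listed 36353 pairs of a promoter and a HindIII fragment for 4429 promoters and 33334 distinct fragments, with an interaction score or a dot for each of 15 libraries. Of these libraries 7 were compared, 4 Early and 3 Basal, chosen by their titles. A total of 21604 listings (59.4%) from 4009 promoters had a score in at least 1 of the 7, and these are the listings described here.

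All groups came from ArcCreERT2 x R26R-STOP-floxed-eYFP mice labelled +/+, in which the promoter of the activity-induced gene Arc drives a tamoxifen-dependent Cre, so that cells with an active Arc promoter become fluorescent while the drug is present. Per the labels' protocols, mice were kept in the dark, given 4-hydroxytamoxifen 1 h before contextual fear conditioning, and killed either 1.5 to 2 h after the task or 5 days later. The labels do not say at which interval Early was collected, nor whether or how Basal mice were conditioned, and their treatment field conflicts with the protocol, so Early and Basal are used as names only. Hippocampi of 10 to 12 mice were pooled to reach 10000 nuclei stained for NeuN and GFP and sorted, so no library stands for a single animal. The sources used here do not state the age of the mice or the fraction sorted for each group.

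Promoter-capture Hi-C joins DNA ends that lie close together in the nucleus and enriches the joined pieces that carry a chosen promoter. The partner fragments of a promoter can include enhancers, which are DNA elements that raise transcription from a distance, as well as other promoters and structural sites held near by cohesin and CTCF. In neurons, activity switches on inducible transcription factors within minutes to hours, and these act on enhancers of genes for synapses, channels and growth factors. A contact says that fragments were captured together and does not measure expression.

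Libraries Early-3 and Early-4 shared 4606 listings, which was 82.0% of the smaller library, with a Pearson r of 0.934 across shared listings on the asinh scale. Basal-1 and Basal-2 shared 3716 listings (91.7%), with r = 0.961. Each pair was therefore entered as 1 unit, which leaves 3 Early units (Early-1, Early-2 and Early-3/4) and 2 Basal units (Basal-1/2 and Basal-3). A unit of 2 libraries was counted as scored if either library had a score. Scores were whole numbers of 2 or more and differed in size between libraries. The median score was 65 in Early-1, 155 in Early-2, 100 in Early-3 and 64 in Early-4, against 299 in Basal-1, 194 in Basal-2 and 13 in Basal-3. The sources used here give no read depth behind the scores, and a difference in score between libraries cannot be told apart from a difference in depth.

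Most contacts were seen once. Of the 21604 listings, 17034 (78.8%) were scored in a single unit. Early libraries alone scored 11523 listings, Basal libraries alone 6642, and both groups scored 3439. Of the promoters, 3669 had a scored listing in Early and 3192 in Basal, and 2852 had one in both, so the groups drew largely on the same promoters but on different fragments. Units of one group overlapped no more than units of different groups did. As a share of the smaller unit, the overlap was 14.0% to 17.0% in the 3 pairs of Early units and 17.6% in the only pair of Basal units, and it was 14.5% to 21.9% in the 6 pairs made of 1 Early and 1 Basal unit.

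**Figure D1:**
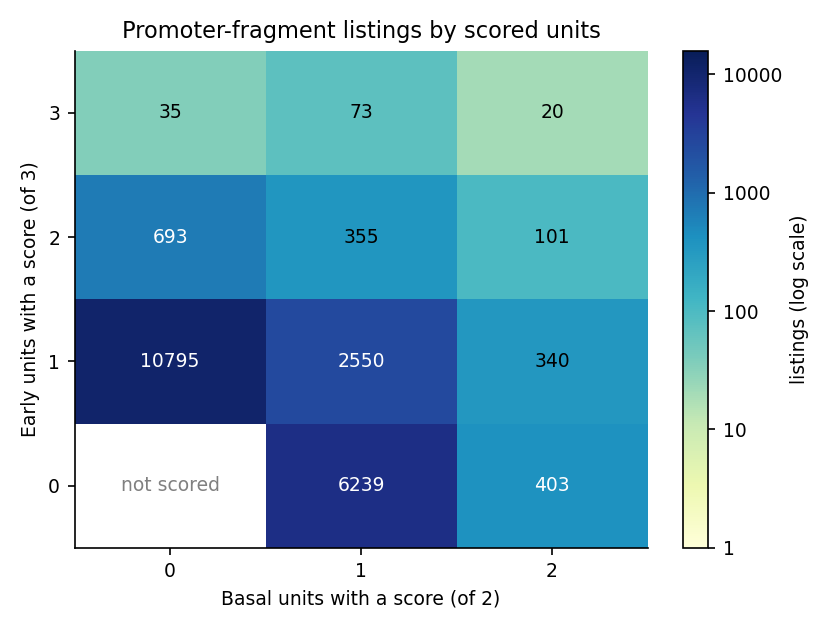
Number of promoter-fragment listings (cell numbers and colour, log colour scale) by how many of the 3 Early units (vertical axis) and of the 2 Basal units (horizontal axis) scored them. The largest cells are the 10795 listings of a single Early unit and the 6239 of a single Basal unit, while 20 listings were scored in all 5 units.

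The contacts that recurred within one group and were listed at 0 in the other are called Early-side and Basal-side contacts below. An Early-side contact was scored in at least 2 of 3 Early units and in no Basal library, and 728 listings met this (3.37% of those scored), on 638 promoters (15.9%). A Basal-side contact was scored in both Basal units and in no Early library, and 403 listings met this (1.87%), on 352 promoters (8.78%). The numbers of units differ between the definitions, so the counts cannot be set against each other directly. Taken pair by pair, 124 of 268 listings shared by Early-1 and Early-2 were unscored in Basal (46.3%), as were 542 of 974 shared by Early-1 and Early-3/4 (55.6%) and 132 of 291 shared by Early-2 and Early-3/4 (45.4%). Of the 864 listings shared by the Basal units, 403 were unscored in Early (46.6%). The Basal share thus lay within the range of the Early shares, but the shares are not for like conditions. Listings of an Early pair had to be unscored in 2 Basal units, and those of the Basal pair in 3 Early units. Both counts depend on the units entered. Without Early-1, 132 Early-side listings on 126 promoters remained in the definition, and without the Early-3/4 unit 124 on 120 promoters remained. With a single Basal unit the Basal-side definition asks for 1 unit only, and it held 3132 listings on 2016 promoters (51.6%) without Basal-3 and 3913 on 1771 promoters (46.3%) without Basal-1/2.

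No listing passed the test between groups. Limma on asinh(score), with a dot as 0 and the 5 units as samples, called 0 of 21604 listings higher (0%) and 0 lower in Early (0%) at a Benjamini-Hochberg adjusted p under 0.05. Before adjustment 5 listings, all higher in Early, had p under 0.05, and the lowest adjusted p was 0.593. On the mean score of each promoter, limma called 0 of 4009 promoters higher (0%) and 0 lower (0%), with 65 at an unadjusted p under 0.05 and a lowest adjusted p of 0.956. By sign alone, 2180 promoters had a higher and 1829 a lower mean in Early, with a median difference of 0.12 on the asinh scale. That median was -0.03 after scaling the libraries to a common score sum and -0.06 after quantile normalisation, so the balance of signs has no firm direction. With so few units and so many zeros, a listing that did not pass is not shown to be equal in both groups. Even the Atmin contact, high in every Early library and at 0 in Basal, had an unadjusted p of 0.0258 in limma. The test thus had little chance to call a single listing. The contacts below are therefore given as listings, not as established changes.

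The test called listings when either Basal unit was left out, where the single remaining Basal unit is assumed to vary like the Early units. A listing at 0 in every Early library then has no spread within either group. A call on such a listing follows from that pattern and does not measure agreement between units. Without Basal-3, limma with Benjamini-Hochberg adjustment called 27 listings higher and 3159 lower in Early, and 237 promoters lower. Without Basal-1/2 it called 32 listings higher and 3915 lower, and 0 promoters. With both Basal units entered, none of these calls held. The Basal libraries also differed in size of score: Basal-3 had the lowest scores of the 7 libraries, with a sum of 126788, against 2183123 in Basal-1 and 1220044 in Basal-2. The part of this difference in the result was not tested.

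At the level of whole units, Early and Basal overlapped in their number of contacts. Listings called at a score of 5 or more numbered 6849 in Early-1, 1664 in Early-2 and a mean of 5923.5 in Early-3/4, against a mean of 4282.5 in Basal-1/2 and 5833 in Basal-3. The groups overlapped widely, with 4812 ± 2765 in Early (SD, n = 3) and 5058 ± 1096 in Basal (SD, n = 2), and the exact permutation test gave p = 1 (two-sided). The median length of the scored fragments was 2959, 2975 and 3018.5 bp in the 3 Early units, against 3197 and 3138 bp in the Basal units. Here the groups did not overlap, yet an exact permutation p of 0.1 is the smallest that 10 arrangements allow, and it was 0.4 after adjustment over 8 measures. The share of a unit's listings that any other unit also scored was likewise separate, at 35.9% ± 3.52 in Early (SD, n = 3) and 43.5% ± 2.35 in Basal (SD, n = 2), with the same exact permutation p of 0.1. Called contacts per promoter averaged 2.05 ± 0.60 in Early (SD, n = 3) and 2.27 ± 0.63 in Basal (SD, n = 2), with an exact permutation p of 0.8.

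**Figure D2:**
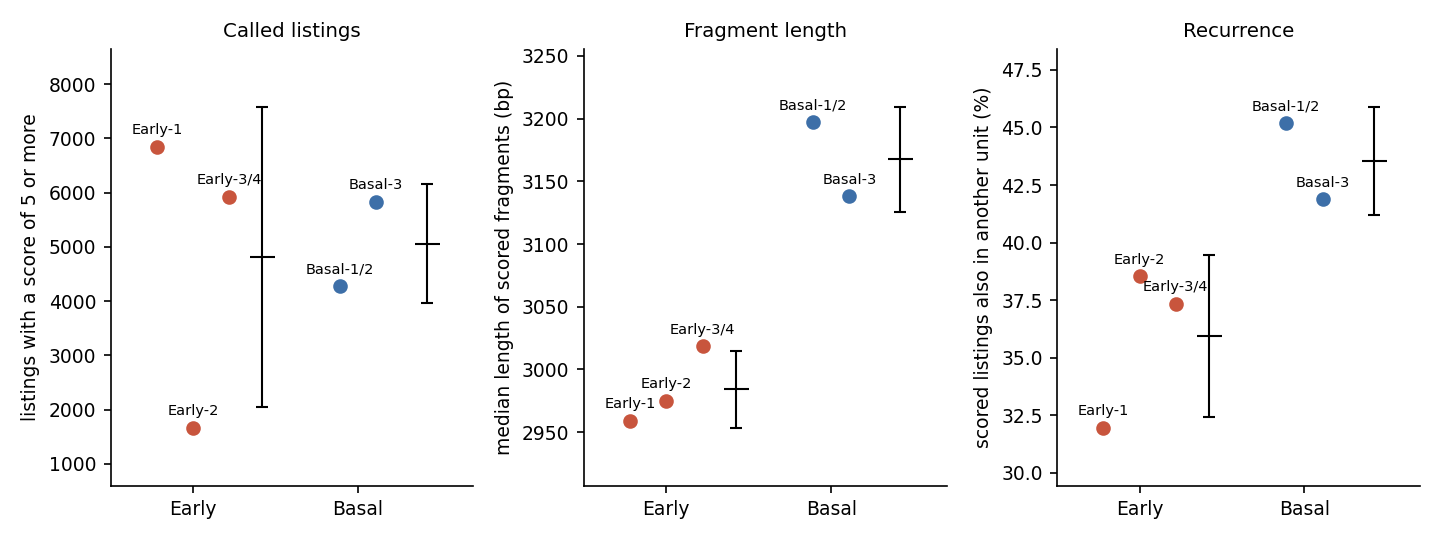
Called listings (left), median length in bp of the scored fragments (middle) and percentage of scored listings also scored in another unit (right) for each unit, with Early in red and Basal in blue; black marks are means ± SD (n = 3 and 2 units). The vertical axes do not start at 0. Called listings overlapped between groups, whereas all 3 Early units lay under both Basal units in fragment length and in recurrence.

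The most stringent Early-side contacts were 26 listings (0.12% of those scored) that had a score in all 4 Early libraries and in no Basal library. They involved 24 fragments and 26 promoters on 13 chromosomes. The counterpart on the Basal side, a score in all 3 Basal libraries and in no Early library, held 318 listings (1.47%), 269 fragments and 289 promoters. The definitions are not alike, since 4 libraries had to agree on the Early side and 3 on the Basal side, and Early-2 scored only 1715 listings. Without Early-2 the count was 380, and without Early-1 it was 97. Of the 26 stringent Early-side listings, 23 (88.5%) also had a score in a Late or Reactivated library, as did 228 of the 318 on the Basal side (71.7%). The share was 58.4% for all 728 Early-side listings, 57.3% for listings scored in both groups and 43.0% for all scored listings. Of this last set 78.8% were scored in a single unit, whereas the stringent listings were chosen for scores in several libraries. The shares are therefore not for like sets. The 3 stringent Early-side listings without any later score belonged to the promoters of Foxo3, Prrg4 and Dtx1.

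Recurring contacts had shorter median distances to the other fragments of their promoter, a difference that was not tested. Distance was taken to the centre of a promoter's own listings, for promoters with at least 5, because bait positions are not used here. Its median was 22843 bp for the stringent Early-side contacts, 74197 bp for the stringent Basal-side contacts and 168173 bp for all scored listings. For listings scored in both groups it was 92979 bp, so short distances were not limited to contacts of one group.

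The promoters themselves were rich in CpG, the dinucleotide that marks most housekeeping and many neuronal promoters. In RefSeq promoter windows of 300 bases (250 before to 50 after the gene start, build GRCm38.p6), the median number of CpG was 25.5 in the 20 of 26 promoters with a stringent Early-side contact that matched, 23 in 221 of 289 with a stringent Basal-side contact, 21 in 3067 of 4009 scored promoters and 7 in all 27025 genes of the table. Promoters on both sides thus resembled the captured set, which stood apart from genes at large. The 3 windows below are shown because their genes carry contacts described next: a stringent Early-side contact at Cacna2d2, stringent contacts of both kinds at Ttll3, and contacts of both kinds at Ppp1r9b. Capitals mark CpG, and each line runs 5′ to 3′ on the gene's strand. The fragments are positioned on build mm9, so their coordinates do not line up with these windows.
Cacna2d2: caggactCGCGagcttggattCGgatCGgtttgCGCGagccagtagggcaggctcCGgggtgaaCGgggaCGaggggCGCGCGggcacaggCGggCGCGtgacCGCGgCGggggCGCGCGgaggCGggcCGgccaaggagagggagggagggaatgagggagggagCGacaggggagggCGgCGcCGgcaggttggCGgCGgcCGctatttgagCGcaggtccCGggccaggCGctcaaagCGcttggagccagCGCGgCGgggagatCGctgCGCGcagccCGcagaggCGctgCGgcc
Ttll3: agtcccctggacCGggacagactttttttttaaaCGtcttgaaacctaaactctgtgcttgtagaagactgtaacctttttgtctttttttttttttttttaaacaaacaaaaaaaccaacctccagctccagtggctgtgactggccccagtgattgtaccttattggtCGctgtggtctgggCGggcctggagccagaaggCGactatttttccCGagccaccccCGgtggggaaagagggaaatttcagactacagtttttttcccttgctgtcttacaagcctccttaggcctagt
Ppp1r9b: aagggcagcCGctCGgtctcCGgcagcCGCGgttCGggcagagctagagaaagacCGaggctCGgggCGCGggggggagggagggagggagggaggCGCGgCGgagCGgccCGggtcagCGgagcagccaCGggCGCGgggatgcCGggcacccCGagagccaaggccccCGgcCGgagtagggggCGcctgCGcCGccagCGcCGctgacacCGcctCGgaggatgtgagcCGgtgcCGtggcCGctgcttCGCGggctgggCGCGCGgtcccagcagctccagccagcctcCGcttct
The Cacna2d2 window (chr9:107399630-107399929, plus strand) holds 43 CpG, the Ttll3 window (chr6:113389010-113389309, plus strand) 7, and the Ppp1r9b window (chr11:94990962-94991261, plus strand) 39. The Ttll3 window has few CpG for this set and the other windows have many. Ttll3 has 2 listed gene starts, and the window is that of the first. The CpG and motif figures all use the first listed start of each gene. None of the 3 windows contains TGACGTCA (the cyclic AMP response element, CRE), TGANTCA (AP-1) or CACGTG (an E-box) on either strand, where N is any base. CRE letters were found in 1 of the 20 matched promoters with a stringent Early-side contact (5%), in 3.17% of those with a stringent Basal-side contact in 3.46% of the scored promoters and in 1.88% of all genes of the table. AP-1 letters were in 2 of the 20 matched promoters with a stringent Early-side contact (10%), 5.43% of those with a stringent Basal-side contact, 4.21% of the scored promoters and 7.93% of all genes. E-box letters were in 3 of the 20 (15%), 10.4%, 9.63% and 7.24% of the same sets.

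The strongest stringent Early-side contact was that of Atmin, which encodes a zinc finger transcription factor of the DNA damage response. Its fragment, chr8:119468235-119468601, scored 1181, 1141, 1921 and 1129 in Early-1 to Early-4 and was listed at 0 in all 3 Basal libraries. These were among the highest scores of each library, at percentiles 99.9, 94.2, 99.7 and 99.8. The difference was 7.83 ± 3.51 on the asinh scale (SE), with an adjusted p of 0.593 in limma with Benjamini-Hochberg adjustment. This SE was taken almost wholly from listings of like mean score and does not show how closely the Atmin units agreed. Skp1a, which encodes a core subunit of SCF ubiquitin ligases, scored 496, 2494, 1051 and 618 at chr11:52047042-52050528. Adam29, a member of the ADAM family of membrane metalloproteases, scored 480, 3905, 571 and 290 at chr8:58397681-58403852. All Basal libraries were at 0 for both, and Early-2 gave the highest value although it scored the fewest listings.

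Next in mean score came the contacts of Pcdh11x, Phactr3 and Kcnq3. Pcdh11x, an X-linked protocadherin of cell adhesion, scored 650, 403, 2946 and 1508 in Early-1 to Early-4. Phactr3, a regulator of protein phosphatase 1 and actin, scored 223, 2773, 355 and 197, and Kcnq3, a subunit of the M-type potassium channel that restrains repetitive firing, scored 175, 1439, 630 and 296. In each the Basal libraries were listed at 0 and the Early values spread over about an order of magnitude. Cacna2d2, an auxiliary subunit of voltage-gated calcium channels, had its contact at chr9:107291564-107293457, with 76, 768, 353 and 228 in Early-1 to Early-4. The promoter printed above as CpG-rich was thus scored in every Early library, and its fragment was also scored in all 4 Late libraries and in 0 Reactivated libraries.

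The other 4 of the 10 with the highest mean were Ttll3, Ubfd1, Serpini1 and Rhobtb3. Serpini1 encodes neuroserpin, a protease inhibitor secreted by neurons, and scored 199, 643, 738 and 415. Rhobtb3, a BTB domain protein, scored 491, 144, 1188 and 617, and Ubfd1 scored 270, 533, 812 and 456. Over the 10 contacts the fitted difference ran from 6.67 (Rhobtb3) to 7.83 (Atmin) with SE of 3.51 each, and the adjusted p was 0.593 in limma with Benjamini-Hochberg adjustment for each. Of the remaining stringent Early-side promoters, several encode regulators of transcription or signalling. Nfatc3, a calcineurin-dependent transcription factor, scored 334, 54, 120 and 82. Chd2, a chromatin remodeller, scored 60, 109, 217 and 100, and Foxo3, a forkhead transcription factor, scored 13, 755, 142 and 67. Dusp16, a phosphatase of JNK and p38 kinases, was the most even of these 4, with 123, 91, 109 and 38.

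The 10 stringent Basal-side contacts with the highest mean had high scores in Basal-1 and Basal-2 and lower ones in Basal-3. That of Arfgef1, an exchange factor that activates ARF GTPases at the Golgi, lies at chr1:10206408-10209325. It was listed at 0 in all 4 Early libraries and scored 1471, 912 and 103 in Basal-1 to Basal-3. Within each library the ranks were alike, at percentiles 94.6, 94.7 and 98.3, so the low value in Basal-3 was high for that library. Ppp1r9b, which encodes the spine scaffold spinophilin that holds protein phosphatase 1, was at 0 in Early and scored 1888, 877 and 66 at chr11:94859254-94879092. Dynlrb1, a light chain of cytoplasmic dynein, was at 0 in Early and scored 3546, 2303 and 27. Its percentile in Basal-3 was 78.4, so here the rank was lower than in Basal-1 (99.9).

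Further members of the 10 with the highest mean encode kinases, signalling factors and general cell machinery. Camk1d, a calcium and calmodulin-dependent kinase, was at 0 in Early and scored 1959, 1193 and 34 in Basal-1 to Basal-3. Psd2, an exchange factor for ARF6, was at 0 in Early and scored 1134, 752 and 56. Klf13, a Kruppel-like transcription factor, was at 0 in Early and scored 2802, 1497 and 37. As in the contacts above, Basal-1 was highest and Basal-3 lowest in each. Rps19, a protein of the small ribosomal subunit, was at 0 in Early and scored 2027, 1282 and 34 with a fragment on chromosome 18, although its Early-side contact lies on chromosome 7. The other 3 were Nktr, a cyclophilin-related protein, Cnpy3, a chaperone of Toll-like receptors, and Nudcd3, which stabilises dynein. Over the 10 contacts the fitted difference ran from -6.54 (Arfgef1, SE 3.44) to -6.01 (Nudcd3, SE 3.40), and limma with Benjamini-Hochberg adjustment gave an adjusted p of 0.593 for each.

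**Figure D3:**
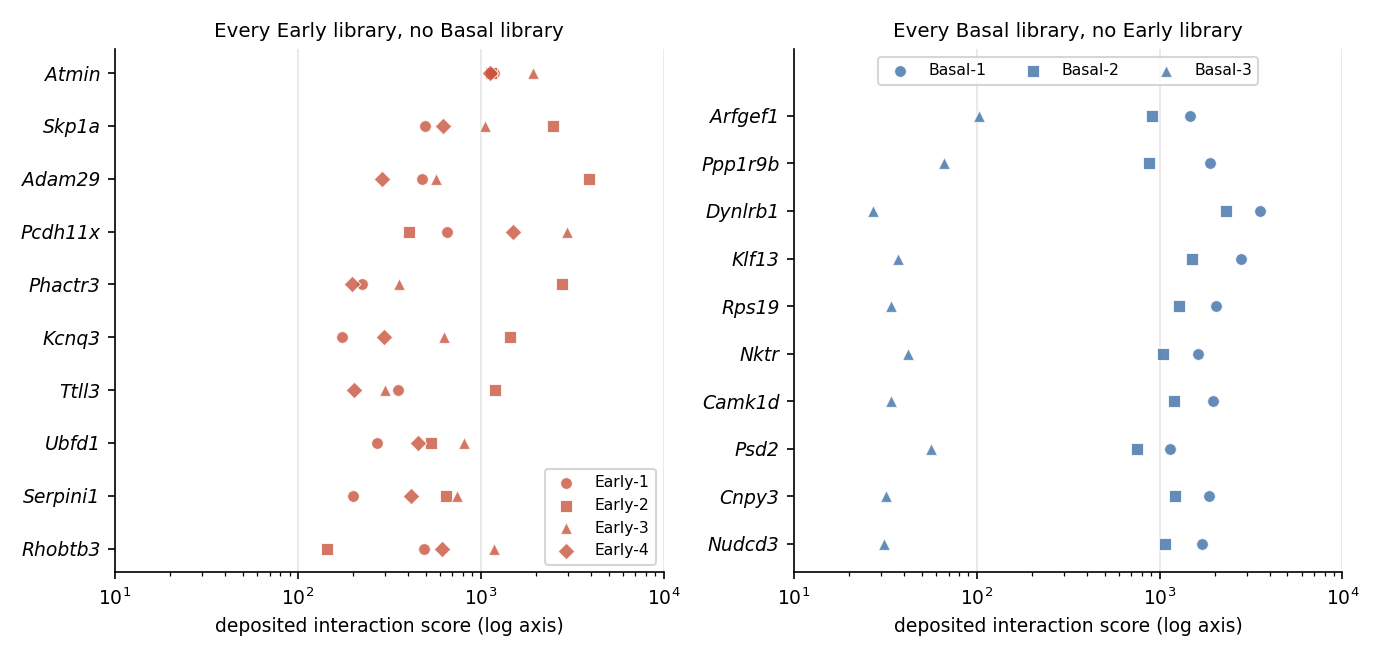
Deposited interaction score (log axis) of the 10 stringent Early-side contacts (left, red, one symbol per Early library) and the 10 stringent Basal-side contacts (right, blue, one symbol per Basal library) with the highest mean asinh score. Contacts on the left were listed at 0 in every Basal library and those on the right at 0 in every Early library. Atmin is the tightest on the left, with scores from 1129 to 1921, and on the right every Basal-3 score is 103 or less.

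Some promoters had contacts of both kinds. At the unit level 77 promoters had at least 1 Early-side and at least 1 Basal-side contact, and in 76 of them both kinds occurred on one chromosome, with a median gap of 189708 bp. In 4 the gap was under 10000 bp. The nearest pair apart from adjoining fragments was at Dnajb5, a co-chaperone of the heat shock protein 40 family, with 1290 bp between an Early-side and a Basal-side fragment. Among stringent contacts 2 promoters had both kinds. Ttll3, which encodes a tubulin glycine ligase of cilia, had scores of 354, 1191, 299 and 203 in Early-1 to Early-4 and 0 in Basal at chr6:113332953-113334635. At chr6:113346567-113347872, 11931 bp away, it was at 0 in Early and scored 85, 56 and 21 in Basal-1 to Basal-3. This Basal-side fragment is also listed with Cpne9, so its score cannot be assigned to 1 promoter. Both Ttll3 fragments were scored in Late and Reactivated libraries too.

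The other was Cyb561, a transmembrane electron carrier of secretory vesicles. Its Early-side fragment, chr11:105820595-105831583, is shared with the neighbouring Ace, the angiotensin-converting enzyme, and scored 153, 606, 168 and 89 in Early-1 to Early-4 and 0 in Basal. Its Basal-side fragment, chr11:20242581-20244387, was at 0 in Early and scored 106, 73 and 6. The fragments lie 85576207 bp apart. Ppp1r9b had the same arrangement at the unit level: its Early-side fragment at chr11:94826182-94838815 scored 93, 0, 117 and 78 in Early-1 to Early-4, and it lies 20438 bp from the Basal-side fragment given above. Arfgef1 likewise had 2 Early-side fragments, with 145, 0, 992 and 570 at chr1:10239444-10244094 and 192, 0, 127 and 68 at chr1:10297152-10302735. No promoter mean passed the test.

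Phlpp1, which encodes a phosphatase that dephosphorylates Akt, had the most Early-side contacts of any named promoter, 4 of its 36 listings, and 1 Basal-side contact. Its called contacts numbered 17, 4, 14 and 17 in Early-1 to Early-4, against 4, 4 and 7 in Basal-1 to Basal-3. Early-2 lay within the Basal range, and the other Early libraries lay above it. Casd1, an enzyme that acetylates sialic acids, had 3 Early-side contacts and 6, 4, 4 and 3 called contacts in Early, against 0, 0 and 4 in Basal. Dusp16, Fign (a microtubule-severing enzyme) and Gpr153 (an orphan receptor) had 3 Early-side contacts each. At Fign all 3 had a score in Early-2, which makes it unlike Casd1, where Early-2 was at 0 in all 3. Across all promoters 559 of 638 had exactly 1 Early-side contact, and 10 had 3 or more.

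Gltpd2, a gene of the glycolipid transfer protein family, was the clearest case on the Basal side. All 3 of its scored listings were Basal-side contacts, and it had 0 called contacts in every Early library, against 3 in each Basal library. Arfgap3, which inactivates ARF1, had 3 Basal-side contacts and 1, 0, 0 and 0 called contacts in Early, against 4, 5 and 3 in Basal. These groups did not overlap, in a promoter chosen for such contacts. Ccdc85c and Rap2b, a Ras-related GTPase, also had 3 Basal-side contacts each, and Adora1, the adenosine A1 receptor that dampens transmitter release, had 2. At Adora1 the called contacts were 1, 0, 3 and 3 in Early, against 3, 3 and 6 in Basal. Of the 352 promoters 305 had exactly 1 Basal-side contact, and 4 had 3.

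**Figure D4:**
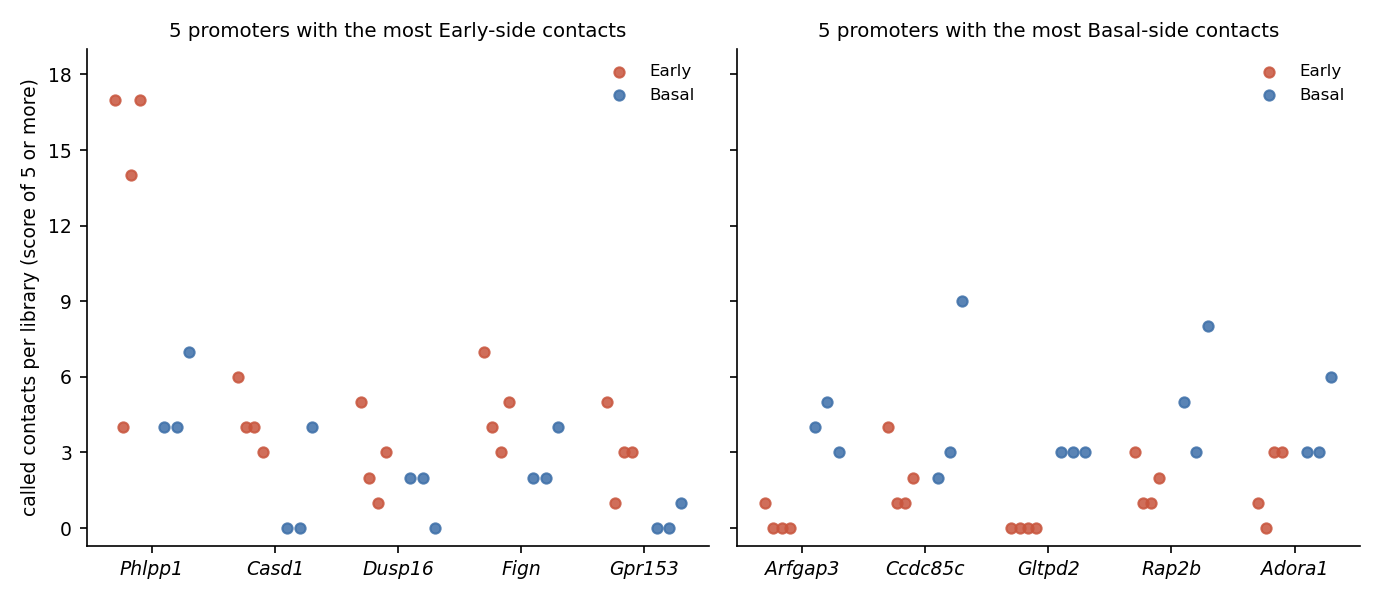
Called contacts per library (score of 5 or more; one point per library, 4 Early in red and 3 Basal in blue) at the 5 promoters with the most Early-side contacts (left) and the 5 with the most Basal-side contacts (right). The promoters were chosen for these contacts, so the plot is a description. Phlpp1 reached 17 called contacts in Early-1 and Early-4, and Gltpd2 had 0 in every Early library.

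Fragments listed with several promoters give 1 score to all of them. The most widely shared Early-side fragment, chr3:95871845-95872960, was listed with 6 promoters, among them Sv2a, a synaptic vesicle protein, and the histone gene Hist2h3b, with scores of 38, 0, 3 and 7 in Early-1 to Early-4. The most widely shared Basal-side fragment, chr3:89049961-89053198, was listed with 6 promoters, among them Hcn3, a pacemaker channel, and scored 661, 414 and 15 in Basal-1 to Basal-3. On fragments listed with a single promoter alone, 523 Early-side and 293 Basal-side contacts remained in the definitions.

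The contacts present in all 7 libraries allow scores to be set side by side without zeros. There were 15 such listings, in which a shared fragment counts once for each of its promoters. Rtn4rl2, Smtnl1, Tnks1bp1 and Ube2l6 share a fragment, as do Cd47 and Pvrl3, and Junb and Prdx2. The contact of Ptpn7, a tyrosine phosphatase of MAP kinases, scored 334, 1067, 3145 and 1741 in Early-1 to Early-4, against 174, 115 and 113 in Basal-1 to Basal-3. That of Fgf18, a fibroblast growth factor, had 227, 252, 347 and 180 in the Early libraries, against 163, 107 and 133 in the Basal libraries. For both the lowest Early library lay above the highest Basal library. The contact of Kcna1, a potassium channel of axons, scored 347, 662, 667 and 338 in Early, against 1376, 824 and 111 in the Basal libraries. Here the groups overlapped. None of the 15 passed the test.

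Of the gene lists as counted here, the inducible transcription factors had the largest share of promoters with Early-side contacts. Of 19 scored promoters of this list 7 had at least 1 (36.8%, against 15.9% of all scored promoters), and 0 had a Basal-side contact (against 8.78%). The 7 were Egr1, Junb, Klf10, Klf2, Npas4, Nr4a1 and Nr4a3, which encode transcription factors induced by neuronal activity or growth signals. These promoters also had more listings than others, with a median of 7 against 4 over all scored promoters, and the part of this difference in the count was not tested. The median difference of the list was -0.01 on the asinh scale, with 9 promoters higher and 10 lower in Early.

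Within this list the scores were uneven between Early libraries. At Npas4, a factor specific to neuronal activity, the fragment chr19:4985147-4985511 scored 0, 200, 399 and 170 in Early-1 to Early-4 and 0 in Basal. At Junb, a subunit of AP-1, the fragment chr8:87537142-87541155 scored 0, 117, 465 and 278 and is shared with Hook2. At Nr4a3, an orphan nuclear receptor, the scores were 19, 0, 153 and 91. In these 3 Early-3 was highest and another Early library was at 0. At Egr1, a zinc finger factor, they were 90, 0, 13 and 0, at Nr4a1 73, 0, 26 and 0 (shared with Krt81), and at Klf2 0, 243, 11 and 12 (shared with Slc35e1). Klf10 had 2 such fragments, with 38, 137, 0 and 0 at one and 3, 0, 0 and 10 at the other. None of these Early-side contacts was scored in all 4 Early libraries, although Junb also has a contact scored in all 7 libraries (113, 114, 10 and 981 in Early, against 1077, 682 and 17 in the Basal libraries). The count was 3 without Early-1, 4 without Early-2 (where 1 member had a Basal-side contact), 5 without Early-3, 1 without the Early-3/4 unit and 4 on fragments listed with 1 promoter. In the settings without Early-2 and with 1 promoter per fragment its share of the 20 promoters in the table (20%) was under that of the activity-regulated effectors (22.2% of 9). With a single Basal unit the list shares are of the 20 promoters in the table, and those of all promoters are of scored ones. Without Basal-3, 12 of the 20 had a Basal-side contact (60%, against 51.6% of all scored promoters). Without Basal-1/2, 14 had one (70%, against 46.3%). The 0 thus depends on both Basal units being entered.

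The activity-regulated effectors are the products that such factors switch on at synapses. They had Early-side contacts at 2 of 8 scored promoters (25%, against 15.9% of all) and Basal-side contacts at 0 (against 8.78% of all). With so few promoters these shares say little about the list. Bdnf, the neurotrophin, scored 176, 0, 2 and 0 in Early-1 to Early-4 at chr2:109439928-109443591. Its score of 2 in Early-3 is the lowest found in the 7 libraries and lies under the limit of 5 for a called contact. Homer1, a postsynaptic scaffold, scored 94, 0, 30 and 0 at chr13:93770425-93771810. Both contacts need Early-1 and Early-3, and the count was 0 without either library. Arc itself, whose promoter drives the Cre of these mice, is in the table but had no scored listing in any of the 7 libraries.

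Synaptic genes showed contacts on both sides. In the list of synaptic vesicle release, 7 of 33 scored promoters had an Early-side contact (21.2%, against 15.9% of all) and 6 a Basal-side contact (18.2%, against 8.78%). The Early-side count rests on shared fragments and on Early-1: it was 1 on fragments listed with 1 promoter and 1 without Early-1, and 0 without the Early-3/4 unit. Napa and Napb, which with NSF take SNARE complexes apart after fusion, both had Basal-side contacts. Napb scored 131, 0, 298 and 174 in Early and 0 in Basal at an Early-side fragment shared with Sstr4, and at its Basal-side fragment it was at 0 in Early and scored 893, 510 and 5 in Basal, at a fragment shared with Gzf1. Napa had 2 Basal-side contacts, the stronger at 0 in Early and 209, 118 and 20 in Basal at a fragment shared with Gltscr2. Rab3b, a vesicle GTPase, scored 330, 0, 27 and 18 in Early and 0 in Basal at a fragment shared with Btf3l4. Syngr3, a vesicle membrane protein, was at 0 in Early and scored 579, 340 and 26 in Basal at a fragment shared with Prss22 and Snora78.

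On the Early side, receptor lists lay near the share of all scored promoters. Of 27 scored promoters of glutamate receptors and partners, 4 had an Early-side contact (14.8%, against 15.9% of all). Only 1 had a Basal-side contact (3.70%, against 8.78% of all). Grm4, a metabotropic glutamate receptor, scored 146, 0, 37 and 22 in Early-1 to Early-4 and was at 0 in Basal. Of 22 GABA receptor and interneuron genes, 3 had an Early-side (13.6%) and 2 a Basal-side contact (9.09%). Slc32a1, the vesicular GABA transporter, was at 0 in Early and scored 411, 0 and 16 in Basal. Among 57 ion channel promoters, 10 had an Early-side contact (17.5%) and 5 a Basal-side contact (8.77%). Cacna2d1, like Cacna2d2 an auxiliary calcium channel subunit, had 2 Early-side fragments, with 86, 0, 151 and 76 at the stronger. The share of channel promoters on each side was thus close to that of all promoters.

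In the postsynaptic scaffold and calcium signalling list, 3 of 21 promoters were on each side, led by Ppp1r9b and Camk1d above. This share of 14.3% stands against 15.9% of all promoters on the Early side and 8.78% on the Basal side. Cell adhesion and axon guidance had the lowest Early-side share of the larger lists, 6 of 68 (8.82%, against 15.9% of all promoters). It had 6 on the Basal side (8.82%, against 8.78% of all). Igsf9b, an adhesion protein of inhibitory synapses, had both, with 206, 0, 491 and 272 in Early at one fragment and 1150, 690 and 13 in Basal at another. Plxna2, a semaphorin receptor, was at 0 in Early and scored 646, 397 and 22 in Basal. Zinc finger proteins had 12 of 124 promoters on the Early side (9.68%) and 15 of 124 on the Basal side (12.1%). Zfp687 had 2 Basal-side contacts, the stronger at 0 in Early and 1123, 696 and 8 in Basal at a fragment shared with Cgn and Usp33. It is also among the promoters with a contact in all 7 libraries. That contact scored 2139, 6057, 3379 and 1968 in Early-1 to Early-4, against 1626, 958 and 64 in Basal-1 to Basal-3.

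Solute carriers had Early-side contacts at 21 of 93 promoters (22.6%) and small GTPases at 21 of 103 (20.4%), against 15.9% of all promoters. Basal-side contacts were at 10 of 93 (10.8%) and 10 of 103 (9.71%), against 8.78% of all. In other settings the list shares are of all members in the table, scored or not, and those of all promoters are of scored ones. The list shares thus come out lower than among scored members. On that basis the Early-side solute carrier share was 20.4% against 15.9% with all libraries entered. It was 13.6% against 12.5% of all promoters without Early-2 and 3.88% against 3.28% without Early-1. It was 18.4% against 14.3% without Early-3 and 17.5% against 14.2% without Early-4. On the same basis the small GTPase share was 18.4% against 15.9% with all libraries and 16.7% against 12.5% without Early-2. It was 12.3% against 14.2% without Early-4 and 11.4% against 11.7% on fragments listed with 1 promoter. Slc35a3, a transporter of nucleotide sugars in the Golgi, had 3 Early-side contacts, the strongest with 261, 0, 553 and 301 in Early and 0 in Basal. Slc1a1, the neuronal glutamate transporter EAAC1, had 1 Early-side contact with 11, 992, 0 and 0 in Early, and 2 Basal-side contacts, the first of them at 0 in Early and 413, 243 and 32 in Basal at a fragment shared with Ak3. Among kinases and phosphatases 16 of 111 were on the Early side (14.4%, against 15.9% of all) and 12 on the Basal side (10.8%, against 8.78%). Cytosolic ribosome and translation genes had 10 of 58 (17.2%) and 3 of 58 (5.17%), and mitochondrial genes 7 of 50 (14%) and 2 of 50 (4%). Cytoskeleton and motor genes had 7 of 36 (19.4%) and 2 of 36 (5.56%). The Basal-side shares of these lists thus rest on very few promoters. Eif2s3x, a subunit of the initiation factor eIF2, scored 445, 0, 284 and 137 in Early and 0 in Basal, and Cox6c, a subunit of cytochrome oxidase, scored 472, 159, 0 and 0 at one of its 2 Early-side fragments. Kif2a, a kinesin that shortens microtubules, had 2, with 105, 0, 36 and 16 at the first.

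Chromatin genes had 7 of 42 on the Early side and 5 of 42 on the Basal side (16.7% and 11.9%, against 15.9% and 8.78% of all). Chd5, a neuronal remodeller, scored 255, 0, 222 and 151 in Early at a fragment shared with Gpr153. Mbd3, a subunit of the NuRD complex, scored 372, 211 and 14 in Basal. Ubiquitin and proteasome genes had 8 of 59 (13.6%) and 6 of 59 (10.2%), and Cul9, a cullin, had both kinds. The 3 scored promoters of cohesin, its loader and CTCF had none. The lists share members with each other in part, their members were not tested as groups, and no list member passed the test on listings.

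**Figure D5:**
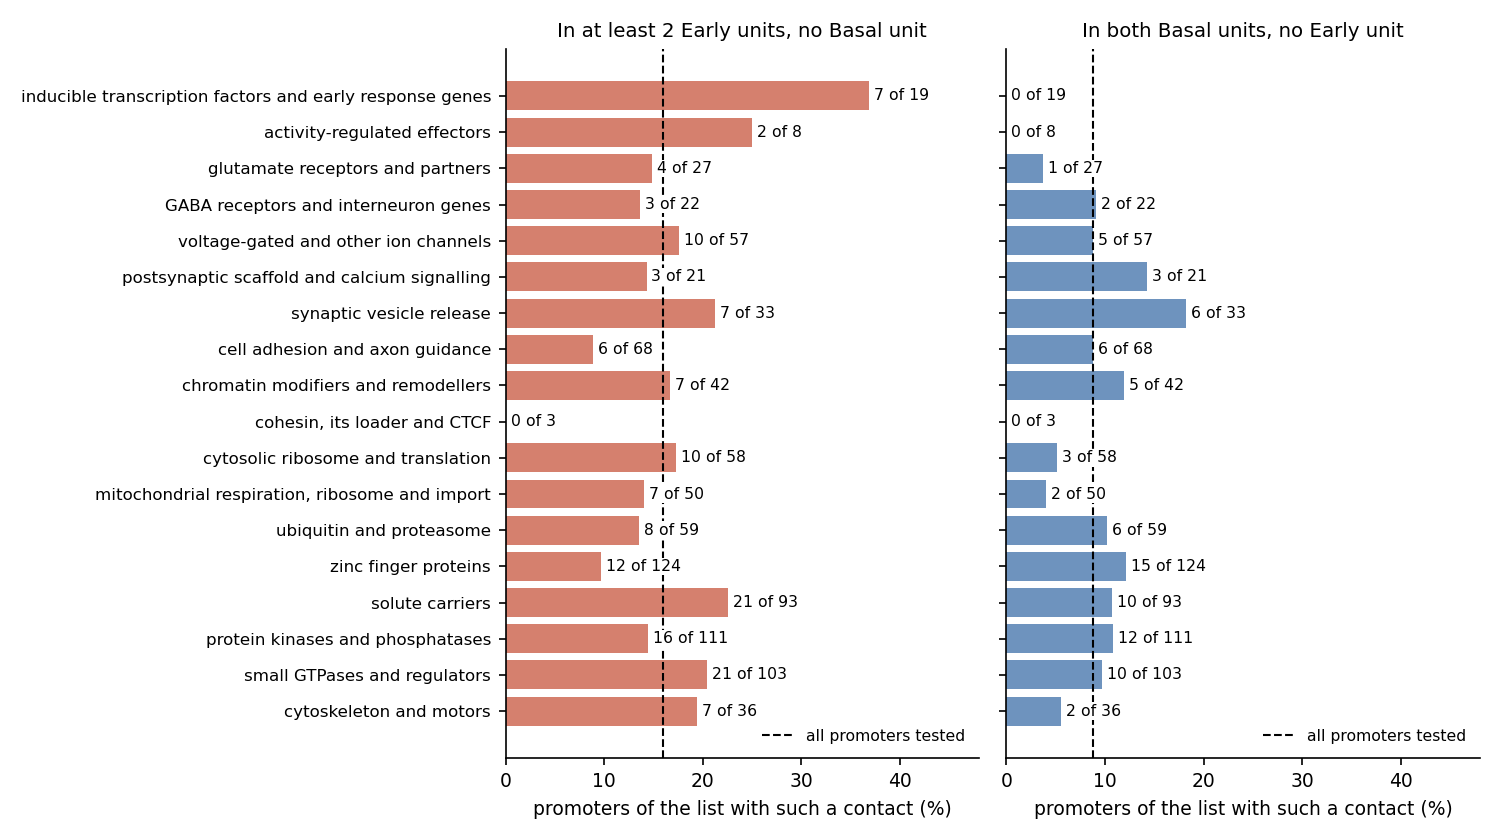
Percentage of the scored promoters of each gene list with at least 1 Early-side contact (left, red) and at least 1 Basal-side contact (right, blue), with the counts beside the bars; the dashed lines give all scored promoters, 15.9% and 8.78%. The inducible transcription factors reach furthest right in the Early panel and are at 0 in the Basal panel.

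The marker lists hold few captured promoters and say nothing of the cells' identity, since contacts are not expression. Of 9 neuron markers 6 are in the table and 5 were scored, with 1 Early-side contact (Tubb3, scored 103, 0, 7 and 7 in Early, at a fragment shared with Chmp1a and Spire2). Rbfox3, which encodes NeuN, had 1 scored listing, in Basal-1. The scored markers of astrocytes (3), oligodendrocytes and precursors (6), microglia (1) and endothelium (1) had no contact of either kind.

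By chromosome, Early-side contacts made up between 2.32% (chromosome 16) and 4.66% (chromosome 15) of the scored listings, and Basal-side contacts between 0.808% (chromosome X) and 5.16% (chromosome 17). Chromosome 17 held 16 Early-side and 29 Basal-side listings among 562, where a shared fragment counts once for each of its promoters. It was the only chromosome with more on the Basal side. The definitions ask for different numbers of units, so these counts cannot be set against each other directly.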

How the data were processed

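Each deposited value is the authors' interaction score of a promoter with a fragment in a library, per the file headers, with positions on mm9, per the submitters' processing notes. For the scoring program, aligner, filters and normalization: not given in the sources used here. Scores were whole and at least 2, and a dot was taken as 0. Groups came from the sample titles. The fragments are HindIII fragments, per the labels' protocols. Nothing shows that libraries came from separate animals beyond the design's mention of biological replicates. The p-values thus refer to spread between library units, which may be technical. In the fit on listings this spread was taken almost wholly over listings of like mean score. Its SE and p therefore do not show how closely the units of 1 contact agreed. The SE was 3.51 for both Atmin and Adam29, with Early scores of 1129 to 1921 and 290 to 3905.

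Scores were put on the asinh scale, the libraries Early-3/4 and Basal-1/2 were averaged, and the 5 units entered limma 3.58.1 (R 4.3.3; statmod 1.5.0; robust empirical Bayes with variance trend, Benjamini-Hochberg adjusted p under 0.05) over all 21604 listings with a score in at least 1 of the 7 libraries, and over the mean of each of 4009 promoters. The fit was also run on simulated data, whose outcome is not given here. That run does not show that the fit could call a contact in scores as sparse as these. Unit measures had an exact two-sided permutation test over 10 arrangements, with Python 3.11.15, pandas 2.3.3, numpy 2.4.6 and scipy 1.17.1; figures used matplotlib 3.10.9. Called contacts have a score of at least 5.

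Named were the 10 stringent contacts of each kind with the highest mean, the 5 promoters with the most contacts of each kind, promoters with stringent contacts of both kinds, and up to 2 members per gene list and side; a fuller set was named after the values were seen for the inducible factors, the contacts in all 7 libraries, the other stringent contacts and shared fragments. Some genes that the rule selects are not reported here. The gene lists, the grouping into units and the rules were chosen with earlier results of these data known. Of the promoter names 4280 matched a RefSeq symbol, 144 a synonym and 5 neither. Counts per gene list on fragments with 1 promoter, and fits and counts without the Early-3/4 or the Basal-1/2 unit, were added after seeing the data. Alternatives varied the scale, scaling, filter, variance trend, unit, shared fragments and each library.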

Additional observations from a re-analysis of the deposited data

Results flagged for a closer look

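In sets of 4 Early libraries, 2 of 32 had a library whose gap to its nearest neighbour was large for the range of the 4. Chance flags about 1 in 20 sets of 4 independent values. Early-3 and Early-4 share most listings, so that rate need not hold here. The Atmin contact had an asinh score of 8.25 in Early-3 (deposited score 1921), with a gap of 0.915 of the range, while the other Early libraries had 1181, 1141 and 1129. Promoters with at least 1 called contact numbered 1185 in Early-2, with a gap of 0.913 of the range, against 2647, 2659 and 2787 in Early-1, Early-3 and Early-4. Early-2 also had the fewest scored listings (1715). A library with fewer listings limits every count that asks for a score in all Early libraries, and what made Early-2 small was not tested.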

How the results depend on the processing

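Each count of calls was 0 in the test as reported. Using presence of a score in place of its size, limma called 31 listings higher in Early; 26 of these are the listings scored in every Early library and no Basal library, which have no spread within a group on that scale. With all listings of the table entered, 1 promoter (Zfp78) was called lower. Leaving out 1 library gave 0 to 27 listings higher, 0 to 3159 listings lower and 0 to 237 promoters lower in Early; all nonzero counts came without Basal-3, which leaves a single Basal unit. Leaving out whole units was added after seeing the data: without Basal-1/2, 32 listings were called higher and 3915 lower and 0 promoters, and without Early-3/4 all counts were 0. The listings in every Early library and no Basal library numbered 26 to 380 with 1 library left out (97 without Early-1, 380 without Early-2, 63 without Basal-3), 124 without the Early-3/4 unit and 53 without the Basal-1/2 unit. Those in every Basal library and no Early library numbered 204 at a score of 10 or more, against 318 as reported, and 334 to 2314 with 1 library left out, the highest without Basal-3; they numbered 3913 without the Basal-1/2 unit, where 1 library defines them. The difference in called listings per unit, Early minus Basal, was -246 as reported, 376 at a score of 10 or more, 291 with each of the 7 libraries as a sample, and -1264 to 1328.5 with 1 library left out (1328.5 without Early-2, 530 without Basal-3), so its sign is not settled. The other alternatives called 0 listings and 0 promoters. Of 400 values of the 20 named contacts under alternatives, 361 stayed on the same side of the threshold, 39 passed it (by presence or without either Basal unit) and 0 reversed. The adjusted p in limma ranged from 2.74e-05 to 0.962.

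Samples of the same number did not deviate together: the correlations were 0.003, -0.006 and 0.006 for numbers 1, 2 and 3. Samples of unlike numbers had -0.036 to 0.036. The numbers thus gave no sign of pairing. With most listings scored in a single unit, the check cannot show whether samples of one number were prepared together. With the replicate block the test called 0 listings and 0 promoters, with 443 listings and 305 promoters at an unadjusted p under 0.05. Read depth is not known, which limits any comparison of score size between libraries.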
